A study of Mus musculus with 61 samples.

Results

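The effect of adding Pdx1 to Ngn3 and MafA was measured in mouse pancreatic ductal organoid cells, by setting cells that carried all 3 factors (NPM cells) against cells that carried Ngn3 and MafA without the Pdx1 vector (NM cells). This comparison, and the gene lists used below, were chosen with earlier results of these data known. Samples were taken by label and depth, as all samples of these 4 conditions whose libraries held over 1000000 counts on genes. Technical repeats of a sample were summed. This gave 11 of the 32 samples kept in the whole series, and 19 of the 22 libraries deposited for these conditions. The series itself held 61 libraries, of which 58 passed the depth limit.

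Organoids grown from the pancreatic ducts of C57BL/6 mice were infected with separate doxycycline-inducible lentiviral vectors for GFP-Ngn3, LSSOrange-Pdx1 and tdTomato-MafA, together with a Tet-On transactivator driven by the PGK promoter. After 8 days of induction the cells were sorted by reporter colour into pools of 50 cells, so NM and NPM cells came from the same infected cultures and were told apart by the Pdx1 reporter. The Ngn3 vector coded either for the wild-type protein (WT) or for 6SA, a phospho-mutant in which 6 serines that Cdks phosphorylate were changed to alanine. The comparison held 3 WT NM, 3 6SA NM, 3 WT NPM and 2 6SA NPM samples. Replicates 1 and 2 were at passage 2 and replicate 3 at passage 5, and no 6SA NPM sample at passage 5 passed the depth limit. All groups shared the duct origin, the doxycycline and the MafA vector, and cells of a pool need not express every factor at the same level. No label says whether replicates came from different mice, so p-values measure the spread between these samples.

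Neurogenin3 (Ngn3) is the basic helix-loop-helix factor that starts endocrine differentiation in the pancreas. Pdx1 is a homeodomain factor that is needed for the pancreas to form and later, in mature islets, is kept mainly in β-cells and δ-cells, where it binds the promoters of insulin, Iapp and somatostatin. MafA is a leucine zipper factor of mature β-cells that acts on the insulin promoter together with Pdx1 and basic helix-loop-helix partners. The comparison therefore addressed what Pdx1 contributes in duct cells that already carry the other two factors.

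Promoters of 3 hormone genes, described below, that rose with Pdx1 are shown: Ins1 (chr19:52264047-52264296), Iapp (chr6:142298175-142298424) and Gip (chr11:96024295-96024544). Each is the 250 bases before the gene's start on the plus strand, from RefSeq on GRCm38.p6. Capitals mark TAAT or ATTA, the core that homeodomain factors bind, and CATCTG or CAGATG, a form of the E-box that basic helix-loop-helix factors bind, so that both strands are covered. Overlapping matches were each counted.
Ins1: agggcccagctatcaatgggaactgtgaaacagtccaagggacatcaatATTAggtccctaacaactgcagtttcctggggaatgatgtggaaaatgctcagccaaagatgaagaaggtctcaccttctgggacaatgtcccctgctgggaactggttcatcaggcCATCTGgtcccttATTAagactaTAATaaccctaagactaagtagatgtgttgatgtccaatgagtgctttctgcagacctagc
Iapp: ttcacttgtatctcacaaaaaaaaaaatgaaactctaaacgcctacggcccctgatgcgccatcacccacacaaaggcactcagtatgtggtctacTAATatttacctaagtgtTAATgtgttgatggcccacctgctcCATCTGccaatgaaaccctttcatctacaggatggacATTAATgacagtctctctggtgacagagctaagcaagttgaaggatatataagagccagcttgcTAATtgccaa
Gip: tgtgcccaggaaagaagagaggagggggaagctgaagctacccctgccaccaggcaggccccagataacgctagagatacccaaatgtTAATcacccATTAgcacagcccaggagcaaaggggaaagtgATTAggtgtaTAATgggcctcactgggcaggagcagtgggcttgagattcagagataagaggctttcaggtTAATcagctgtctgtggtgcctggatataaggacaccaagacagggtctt
The Ins1 window held 3 TAAT cores and 1 such E-box, that of Iapp 5 cores and 1 E-box, and that of Gip 5 cores. That of Sst held 1 core and no such E-box, while that of Gcg, which was lower with Pdx1, held 2 of each. Promoters were found for 13440 of the 24004 genes tested. TAATTA, a longer form of the homeodomain site that holds the core, stood in 4.74% of the 211 promoters of genes higher in NPM cells, in 3.35% of the 269 of genes lower and in 3.37% of all 13440. The E-box stood in 22.7%, 12.6% and 12.8% of them, and the TAAT core in 48.3%, 48.7% and 46.3%. Such matches of letters are a description and were not tested.

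Totals on genes ranged from 6029553 to 15269107 counts per sample, so that 3 counts, taken as the limit of detection, stood for 0.183 to 0.458 CPM (a gene's counts per 1000000 counts on genes, the total being scaled by the TMM factor). Duct genes were expressed in every sample, and the markers of other cells that an organoid culture could hold were mostly low. Fibroblast markers were the exception, reaching a sum of 296 CPM in NM samples (median 0.782). The summed level of 15 acinar markers was 2.22 to 24.9 CPM in NM and 3.72 to 49.7 CPM in NPM samples, with 7 markers at 0 throughout in each group, Cpa1, Amy2a5 and Ptf1a in both. The 7 fibroblast markers summed to 0 to 296 CPM and 0 to 19.1 CPM, the 5 endothelial markers to 0.0807 to 3.36 CPM and 0 to 1.90 CPM, and the 7 immune markers to 11.2 to 44.2 CPM and 10.8 to 40.5 CPM, with Lyz2 and Adgre1 at 0 throughout. None of the 7 acinar, 4 fibroblast, 4 endothelial and 3 immune markers tested passed the test below, with the replicate block Col1a1 passed it as lower (adjusted p = 0.0289), and their part in other results was not tested.

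Pdx1 itself was looked at first, though whether its counts include vector transcripts is not given in the sources used here. Its counts were 11.1, 11.7 and 4.39 CPM in WT NM replicates 1, 2 and 3 and 30.6, 11.4 and 3.21 CPM in those with 6SA Ngn3, against 164, 191 and 30.8 CPM in WT NPM replicates 1, 2 and 3 and 150.3 and 134 CPM in 6SA NPM replicates 1 and 2. Every NPM sample lay above every NM sample, although WT NPM replicate 3, at passage 5, was only just above the highest, 6SA NM replicate 1. Pdx1 (ENSMUSG00000029644, chr5:147269959-147275848) was higher in NPM cells by 3.52 ± 0.56 (standard error) on the log2 scale, with an adjusted p of 0.00093 in edgeR's quasi-likelihood test with Benjamini-Hochberg adjustment over all 24004 genes, which is the test used below unless another is named.

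The other two vectors were carried by both groups. Neurog3, the gene of Ngn3, was at 24.9 to 212 CPM (median 58.1) in the 6 NM samples and at 196, 167 and 14.6 CPM in WT NPM replicates 1, 2 and 3 and 163 and 329 CPM in 6SA NPM replicates 1 and 2. Mafa was at 0.306 to 7.79 CPM (median 1.94) in the 6 NM samples and at 3.46 to 12.7 CPM in the 5 NPM samples. The ranges overlapped for both genes and neither passed the test (log2 fold change 1.04 ± 0.63, adjusted p = 0.385 for Neurog3, log2 fold change 1.16 ± 0.99, adjusted p = 0.583 for Mafa). The lowest Neurog3 of all 11 samples was also that of WT NPM replicate 3. Whether vector and endogenous transcripts were counted together is not given in the sources used here, and Neurog3 and Pdx1 each overlap a gene on the other strand (Fam241b and Plut).

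**Figure D1:**
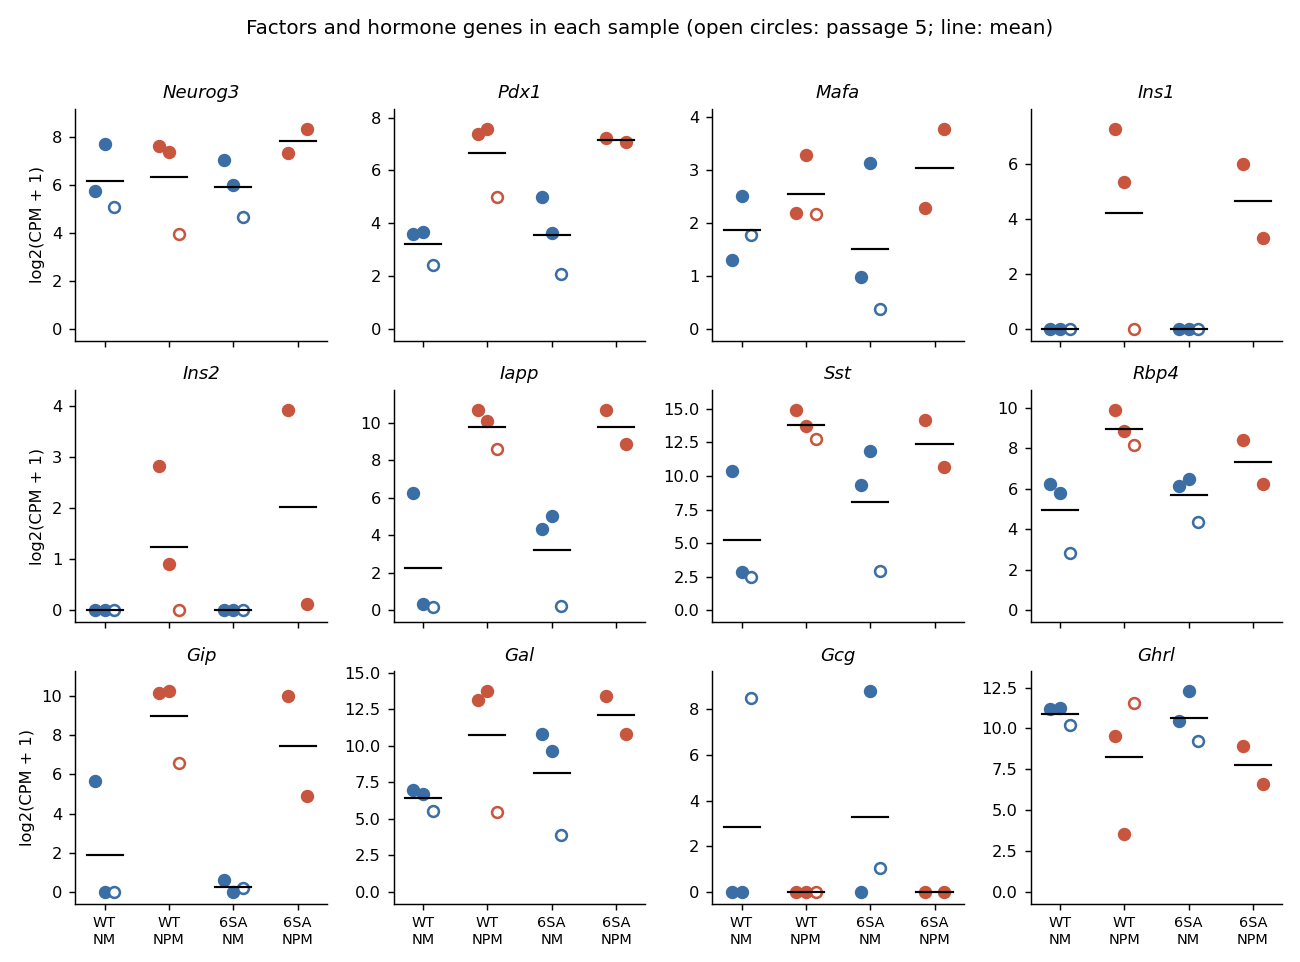
Level of 12 genes, as log2(CPM + 1), in each of the 11 samples, for NM cells (blue) and NPM cells (red) with WT or 6SA Ngn3. Each point is 1 sample, open circles are passage 5 and lines are means: Ins1 and Ins2 stood at 0 in all 6 NM samples, and Iapp was higher in all 5 NPM samples than in any NM sample.

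Over both Ngn3 forms, 280 genes were higher in NPM cells (1.17% of the 24004 tested) and 374 were lower (1.56%), with a median log2 fold change of 0.03 over all genes tested. Ins1, Iapp, Gip and Gal stood among the higher genes, and Clu, Spp1, Vcam1 and Col12a1 among the lower. Within each Ngn3 form, all NPM samples lay above all NM samples for 557 genes (2.32%) and below them for 568 (2.37%), and 363 genes met this and passed the test. WT NPM replicate 3, the one NPM sample at passage 5, was the lowest of the 5 in 224 of the 280 higher genes and the highest in 286 of the 374 lower ones. At passage 2 alone 290 genes were higher and 709 lower, with 559 genes in common with the full comparison.

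Samples with the same replicate number deviated together, less clearly so with 6SA Ngn3. A fit with the number as a block called 2038 of the 24004 genes (1061 higher and 977 lower), including 652 of the 654. Counts of list members called with the block, given below, are to be read against these larger shares over all genes. The count ranged from 154 without 6SA NPM replicate 1 to 1619 without WT NPM replicate 3 when 1 sample was left out. In 11 such fits 33 of the 59 named genes that passed were called every time. Many of these 33 were named for their small adjusted p in the same samples, so their calls are not separate support. Most of the named genes lost, 25, were lost without 6SA NPM replicate 1. For most single genes the number of these fits that called them is given below. Ramp1, Sparc and Cbs, named below, were each called in 10 of 11. Without 6SA NPM replicate 1 their adjusted p was 0.108, 0.0549 and 0.0597.

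**Figure D2:**
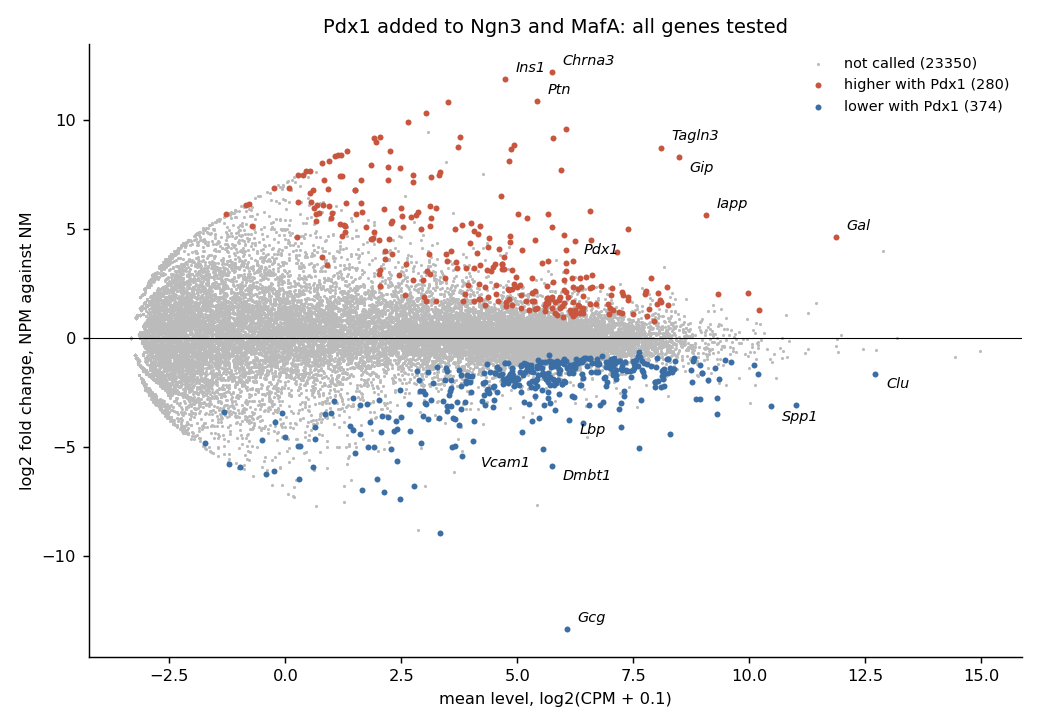
Log2 fold change of NPM against NM cells over both Ngn3 forms (y axis) against the mean level over the 11 samples as log2(CPM + 0.1) (x axis), 1 point a gene tested. The 280 genes called higher are red and the 374 called lower are blue, with Ins1, Chrna3 and Ptn at the top and Gcg at the bottom.

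Among these 11 samples insulin transcripts were found only where Pdx1 had been added. Ins1, one of the pair of insulin genes of the mouse (ENSMUSG00000035804, chr19:52264297-52265476), had no count in any of the 6 NM samples and stood at 153, 39.6 and 0 CPM in WT NPM replicates 1, 2 and 3 and 62.5 and 8.86 CPM in 6SA NPM replicates 1 and 2. It was detected in 4 of the 5 NPM samples, and WT NPM replicate 3 had none. Counted against 3 counts in each NM sample, it was at least 155-fold higher in NPM cells (adjusted p = 0.00397, called in 11 of 11 leave-one-out fits). DESeq2, however, gave it an adjusted p of 0.132. The technical repeats of a sample differed, and before TMM scaling Ins1 was at 192, 412 and 21.1 CPM in the 3 repeats of WT NPM replicate 1 and at 48.7, 56.7 and 131 CPM in those of 6SA NPM replicate 1. A repeat left out for its depth had 1025 CPM in WT NPM replicate 2, against 44.9 CPM in the one kept, and another 393 CPM in 6SA NPM replicate 2, against 10.5 CPM. With such repeats summed in, these samples stood at 137 and 19.7 CPM, and the adjusted p of Ins1 with all libraries was 0.00196. In an exact permutation of the samples within each Ngn3 form, two-sided, p was 0.02 for Ins1, where 0.005 is the smallest that 200 arrangements can give (not adjusted over the 4 hormone genes tested). When the differences of the 5 same-numbered pairs had their signs exchanged instead, a test added after the data were seen, the exact p was 0.125 for Ins1, and the smallest that 32 arrangements can give is 0.0625.

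Ins2, the other insulin gene, was also at 0 in all NM samples and stood at 6.16, 0.878 and 0 CPM in WT NPM replicates 1, 2 and 3 and 14.2 and 0.0868 CPM in 6SA NPM replicates 1 and 2. It was detected in the same 4 samples as Ins1, but 6SA NPM replicate 2 held only 1 count, which is under the limit of detection. The repeat of that sample left out for its depth held 10 counts of Ins2 among 241563. Ins2 was at least 12.6-fold higher against 3 counts in each NM sample, but did not pass the test (adjusted p = 0.06). It did with the replicate block (adjusted p = 0.0257) and with all libraries (adjusted p = 0.0356). Its exact permutation p was 0.02, and 0.125 by pairs. Ins1 and Ins2 are close paralogs that can share reads, and how such reads were assigned to them is uncertain.

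Iapp, islet amyloid polypeptide, a peptide that β-cells release with insulin (ENSMUSG00000041681, chr6:142298423-142303961), stood at 76.6, 0.261 and 0.151 CPM in WT NM replicates 1, 2 and 3 and 19.6, 31.9 and 0.153 CPM in those with 6SA Ngn3. NPM cells had 1630.1, 1111 and 389 CPM in WT NPM replicates 1, 2 and 3 and 1649.7 and 463 CPM in 6SA NPM replicates 1 and 2. All NPM samples were above all NM samples, and Iapp rose by 5.63 ± 1.36 on the log2 scale, with an adjusted p of 0.0243. It was called in 4 of 11 leave-one-out fits (adjusted p = 0.0845 without 6SA NPM replicate 1) and with the replicate block (adjusted p = 0.000876). Iapp overlaps Slco1a5 on the other strand.

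Of 23 β-cell genes tested, Ins1 and Iapp rose and none fell, and 20 had a fold change above 0, with a median log2 fold change of 1.43 against 0.03 for all genes. With the replicate block Ins2 and Abcc8, a subunit of the channel that couples glucose to secretion, rose as well. The list of 10 genes described as Pdx1 targets, which shares its 2 called members Ins1 and Iapp with the β-cell list, had a median of 3.05, with 2 called and none lower, or 6 with the block. As the samples were pools of sorted cells, more cells of a type and more RNA per cell cannot be told apart.

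Somatostatin (Sst), the hormone of δ-cells, was at 1351, 6.13 and 4.54 CPM in WT NM replicates 1, 2 and 3 and 651, 3718 and 6.42 CPM in those with 6SA Ngn3. NPM cells had 30704, 13332 and 6953 CPM in WT NPM replicates 1, 2 and 3 and 18482 and 1605 CPM in 6SA NPM replicates 1 and 2. The groups overlapped, since 6SA NM replicate 2 was above 6SA NPM replicate 2, and the difference did not pass the test (log2 fold change 4.005 ± 1.29, adjusted p = 0.0845). With the replicate block it did (adjusted p = 0.0276), as in DESeq2 (adjusted p = 0.0113), and its exact permutation p was 0.025, and 0.125 by pairs. The repeat of 6SA NPM replicate 2 left out for its depth had 25211 CPM, and with it summed in that sample stood at 2463 CPM before TMM scaling, still below the 4050 CPM of 6SA NM replicate 2 (adjusted p = 0.0511 with all libraries).

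Of 6 δ-cell genes tested 1 rose and none fell, with fold changes above 0 for all 6 (median 1.74), and 3 rose with the block. The one that rose, Rbp4, a retinol carrier that δ-cells express strongly, was at 6.202 to 89.3 CPM (median 61.5) in the 6 NM samples and at 74.9 to 943 CPM in the 5 NPM samples. The groups overlapped in 6SA cells, where NPM replicate 2 lay below NM replicate 2. Rbp4 rose by 2.72 ± 0.61 on the log2 scale, with an adjusted p of 0.0156 (8 of 11 leave-one-out fits, adjusted p = 0.133 without 6SA NPM replicate 1).

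Glucagon (Gcg), the hormone of α-cells, was found without Pdx1 and in no NPM sample. NM cells had 0, 0 and 359 CPM in WT NM replicates 1, 2 and 3 and 0, 443 and 1.07 CPM in those with 6SA Ngn3, and all 5 NPM samples had no count. Gcg was at least 433-fold lower in NPM cells against 3 counts in each NPM sample (adjusted p = 0.0225). Nearly all counts were in 2 of the NM samples. Gcg was called in 7 of 11 leave-one-out fits (adjusted p = 1.0 without WT NM replicate 3), its adjusted p was 1.0 at passage 2 alone, and the exact permutation p was 0.35, and 0.5 by pairs. In 6SA NM replicate 2 its 4269 counts came from 1 of 2 technical repeats, and the other had none.

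Of 11 α-cell genes tested 3 fell and none rose, with a median of -1.53, and 5 fell with the block. Besides Gcg they were amino acid transporters. Slc7a2, which carries cationic amino acids, was at 19.3 to 74.4 CPM (median 32.7) in the 6 NM samples and at 3.66 to 11.3 CPM in the 5 NPM samples, and fell by 2.24 ± 0.46 on the log2 scale (adjusted p = 0.00944, 10 of 11 leave-one-out fits). Slc38a5, a glutamine transporter, was at 0.605 to 1817 CPM (median 337) in the 6 NM samples and at 5.71 to 57.2 CPM in the 5 NPM samples, and fell by 4.41 ± 1.2 (adjusted p = 0.0459, 2 of 11 leave-one-out fits, adjusted p = 0.187 without 6SA NPM replicate 1). Its lowest sample of all 11 was WT NM replicate 3.

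Ghrelin (Ghrl), the hormone of ε-cells, was at 597 to 4934 CPM (median 1895) in the 6 NM samples and stood at 752, 10.8 and 3053 CPM in WT NPM replicates 1, 2 and 3 and 481 and 97.9 CPM in 6SA NPM replicates 1 and 2. WT NPM replicate 3 was inside the NM range, WT NPM replicates 1 and 2 and both 6SA NPM samples lay below their own NM groups, and the difference did not pass the test (log2 fold change -1.83 ± 0.802, adjusted p = 0.211). Mboat4, the acyltransferase that activates ghrelin, was at 1.66 to 62.1 CPM (median 34.4) in the 6 NM samples and at 0.339 to 5.98 CPM in the 5 NPM samples, and fell by 3.81 ± 0.96 on the log2 scale (adjusted p = 0.0348, 4 of 11 leave-one-out fits, adjusted p = 0.184 without 6SA NPM replicate 1). It was the only one of 4 ε- and PP-cell genes to pass. Ppy, pancreatic polypeptide, was at most 11.2 CPM in NM and 1.22 CPM in NPM samples, and Pyy, peptide YY, at 0 to 272 CPM and 0 to 1406 CPM.

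A gut hormone and a neuropeptide rose beside Ins1 and Iapp. Gip, the incretin of intestinal K-cells (ENSMUSG00000014351, chr11:96024545-96030831), was at 49.9, 0 and 0 CPM in WT NM replicates 1, 2 and 3 and 0.489, 0 and 0.153 CPM in those with 6SA Ngn3. It stood at 1163, 1219 and 94.8 CPM in WT NPM replicates 1, 2 and 3 and 1019 and 28.9 CPM in 6SA NPM replicates 1 and 2. In WT cells all NPM samples were above all NM samples, and the same held in 6SA cells. Gip rose by 8.28 ± 1.39 on the log2 scale, with an adjusted p of 0.0018, and was called in 11 of 11 leave-one-out fits. The counts of WT NM replicate 1 came almost wholly from 1 technical repeat, with 618 counts in repeat 1 and 1 count in repeat 2.

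Galanin (Gal), a neuropeptide that also acts on islets, was at 13.9 to 1791 CPM (median 113) in the 6 NM samples and at 8922, 13409 and 42.5 CPM in WT NPM replicates 1, 2 and 3 and 10710.2 and 1807 CPM in 6SA NPM replicates 1 and 2. WT NPM replicate 3 lay within the NM range and the other four samples were above it. Gal rose by 4.61 ± 1.1 on the log2 scale, with an adjusted p of 0.0225 (5 of 11 leave-one-out fits, adjusted p = 0.112 without 6SA NPM replicate 1). Gip and Gal were the 2 of 15 gut hormones and neuropeptides tested that rose, none fell, and the median of the list was 2.88.

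Most endocrine transcription factors did not pass the test. Of 27 tested 1 rose and none fell, although 21 had a fold change above 0 (median 0.87), and 8 rose with the replicate block. The one that rose, Neurod2, a basic helix-loop-helix factor related to Ngn3, was at 0 to 4.77 CPM (median 1.13) in the 6 NM samples and at 1.86 to 61.4 CPM in the 5 NPM samples (log2 fold change 4.33 ± 1.15, adjusted p = 0.0457, 2 of 11 leave-one-out fits, adjusted p = 0.127 without WT NPM replicate 1).

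Of 26 genes of granules and exocytosis 2 rose and none fell (median 1.31), and 9 rose with the block. Rab3a, a small GTPase of secretory vesicles, was at 11.9 to 47.8 CPM (median 20.7) in the 6 NM samples and at 40.8 to 189 CPM in the 5 NPM samples (log2 fold change 2.32 ± 0.43, adjusted p = 0.00397, 10 of 11 leave-one-out fits), and it overlaps Mpv17l2 on the other strand. Resp18, a protein of dense-core granules, was at 18.2 to 136 CPM (median 92.2) in the 6 NM samples and at 79.4 to 567 CPM in the 5 NPM samples (log2 fold change 2.002 ± 0.51, adjusted p = 0.0328, 4 of 11 leave-one-out fits). Of 17 genes of glucose sensing and excitability none rose and 1 fell, while 16 had a fold change above 0 (median 1.48) and 2 rose with the block. Gpr119, a lipid receptor that promotes incretin and insulin release, had a mean of 13.3 ± 17.7 CPM (SD, n = 6) in NM cells and 0.0943 ± 0.0871 CPM (SD, n = 5) in NPM cells and fell (adjusted p = 0.0396, 3 of 11 leave-one-out fits).

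Genes of the Notch pathway, through which neighbouring cells restrain endocrine differentiation, changed in both directions. Of 19 tested, the regulator Dtx1 and the target Hes5 rose and the receptor Notch2 and the ligand Jag1 fell. The median was -0.25 over the list, or -0.26 with members absent from a whole group at their bound. With the replicate block Mfng rose too (log2 fold change 3.53, adjusted p = 0.0247). Heyl, at a mean of 4.62 CPM in NM and 0 CPM in NPM cells, fell with the block (adjusted p = 0.00938). Dtx1 was at 0 to 1.0997 CPM (median 0) in the 6 NM samples and at 19.4, 21.1 and 0.532 CPM in WT NPM replicates 1, 2 and 3 and 15.5 and 9.38 CPM in 6SA NPM replicates 1 and 2 (log2 fold change 7.48 ± 1.27, adjusted p = 0.00256, 11 of 11 leave-one-out fits). It was above the NM range in 4 of 5 NPM samples.

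Hes5 had no count in NM cells and stood at 0 to 33.5 CPM in the 5 NPM samples. It was at least 35.9-fold higher against 3 counts in each NM sample (adjusted p = 0.0492, 1 of 11 leave-one-out fits). Its adjusted p was 0.187 without 6SA NPM replicate 1 and 0.235 in DESeq2. Notch2 was at 34.4 to 87.7 CPM (median 59.8) in the 6 NM samples and at 12.7, 9.66 and 54.9 CPM in WT NPM replicates 1, 2 and 3 and 7.73 and 9.72 CPM in 6SA NPM replicates 1 and 2, with WT NPM replicate 3 far above the other four. Notch2 fell by 1.99 ± 0.403 on the log2 scale (adjusted p = 0.00742, 10 of 11 leave-one-out fits). Jag1 was at 21.1 to 131 CPM (median 80.4) in the 6 NM samples and at 7.64 to 71.5 CPM in the 5 NPM samples, and fell by 1.82 ± 0.398 (adjusted p = 0.0135, 10 of 11 leave-one-out fits).

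Some neuronal genes rose as well. Of 14 tested 3 rose, none fell and 13 had a fold change above 0, with a median of 2.03. With the replicate block 10 rose, in a fit that called 1061 of all 24004 genes higher. Mapt, the microtubule protein tau, was at 0 to 14.97 CPM (median 2.04) in the 6 NM samples and at 13.2 to 149.6 CPM in the 5 NPM samples (log2 fold change 4.49 ± 1.0, adjusted p = 0.015, 10 of 11 leave-one-out fits). Stmn3, a tubulin-binding stathmin, was at 0.458 to 14.6 CPM (median 2.55) in the 6 NM samples and at 10.6 to 94.1 CPM in the 5 NPM samples (log2 fold change 3.71 ± 0.86, adjusted p = 0.0205, 5 of 11 leave-one-out fits). Elavl4, an RNA-binding protein of neurons, was at 0 to 17.9 CPM (median 3.35) in the 6 NM samples and at 13.8 to 62.05 CPM in the 5 NPM samples (log2 fold change 3.08 ± 0.83, adjusted p = 0.0432, 3 of 11 leave-one-out fits). Islet cells also express many genes of this kind.

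Some duct genes fell. Of 20 tested 3 fell and none rose (median -0.66), and 5 fell with the block. Their summed level was 12599 to 27521 CPM in NM samples (median 20805) and 5776 to 11553 CPM in NPM samples (median 7292), and the groups did not overlap. Clu and Spp1 were 53.7% to 71.6% of this sum in NM and 34.4% to 47.9% in NPM samples, and without them, a choice made after their values were seen, the sums overlapped (5670 to 9534 CPM against 3036 to 6457 CPM). Clu, clusterin, was at 5930.3 to 14465 CPM (median 10118) in the 6 NM samples and at 2475, 2269 and 4573 CPM in WT NPM replicates 1, 2 and 3 and 3422 and 3295 CPM in 6SA NPM replicates 1 and 2, and fell by 1.66 ± 0.35 on the log2 scale (adjusted p = 0.0112, 9 of 11 leave-one-out fits). All 5 NPM samples lay below all 6 NM samples.

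Spp1, osteopontin, was at 829.1 to 3777 CPM (median 3076) in the 6 NM samples and at 63.8 to 526 CPM in the 5 NPM samples, and fell by 3.14 ± 0.68 (adjusted p = 0.0126, 10 of 11 leave-one-out fits). Cd24a, a surface protein of progenitor and duct cells, was at 550.1 to 1462 CPM (median 870.2) in the 6 NM samples and at 343 to 640.5 CPM in the 5 NPM samples, and fell by 1.03 ± 0.25 (adjusted p = 0.026, 7 of 11 leave-one-out fits). With the block Krt18, a keratin (adjusted p = 0.0305), and Prom1, a membrane protein of epithelial cells (adjusted p = 0.0131), fell too, while Sox9, Krt19, Krt7 and Krt8, which also mark ducts, passed neither test.

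The remaining lists held few changes. Of 17 gastric and intestinal epithelial genes 1 fell, Dmbt1, a scavenger receptor of mucosal surfaces that is described below. Of 18 proliferation genes 1 fell, Mcm2 of the replicative helicase, at 42.9 to 59.2 CPM (median 46.1) in the 6 NM samples and at 13.98 to 28.7 CPM in the 5 NPM samples (adjusted p = 0.0327, 4 of 11 leave-one-out fits). Of 17 genes of secretory folding and ER stress, Sdf2l1, a partner of the chaperone BiP, rose (log2 fold change 1.88 ± 0.43, adjusted p = 0.0187, 8 of 11 leave-one-out fits) and Atf3, a stress-induced factor, fell by 1.59 ± 0.395 (adjusted p = 0.0283, 4 of 11 leave-one-out fits). None of 14 interferon and antigen presentation genes passed the test. With the replicate block the class I gene H2-D1 passed as higher (adjusted p = 0.0166) and Bst2, an antiviral membrane protein, as lower (adjusted p = 0.00629), and among the proliferation genes Mcm6 passed as lower (adjusted p = 0.0213).

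**Figure D3:**
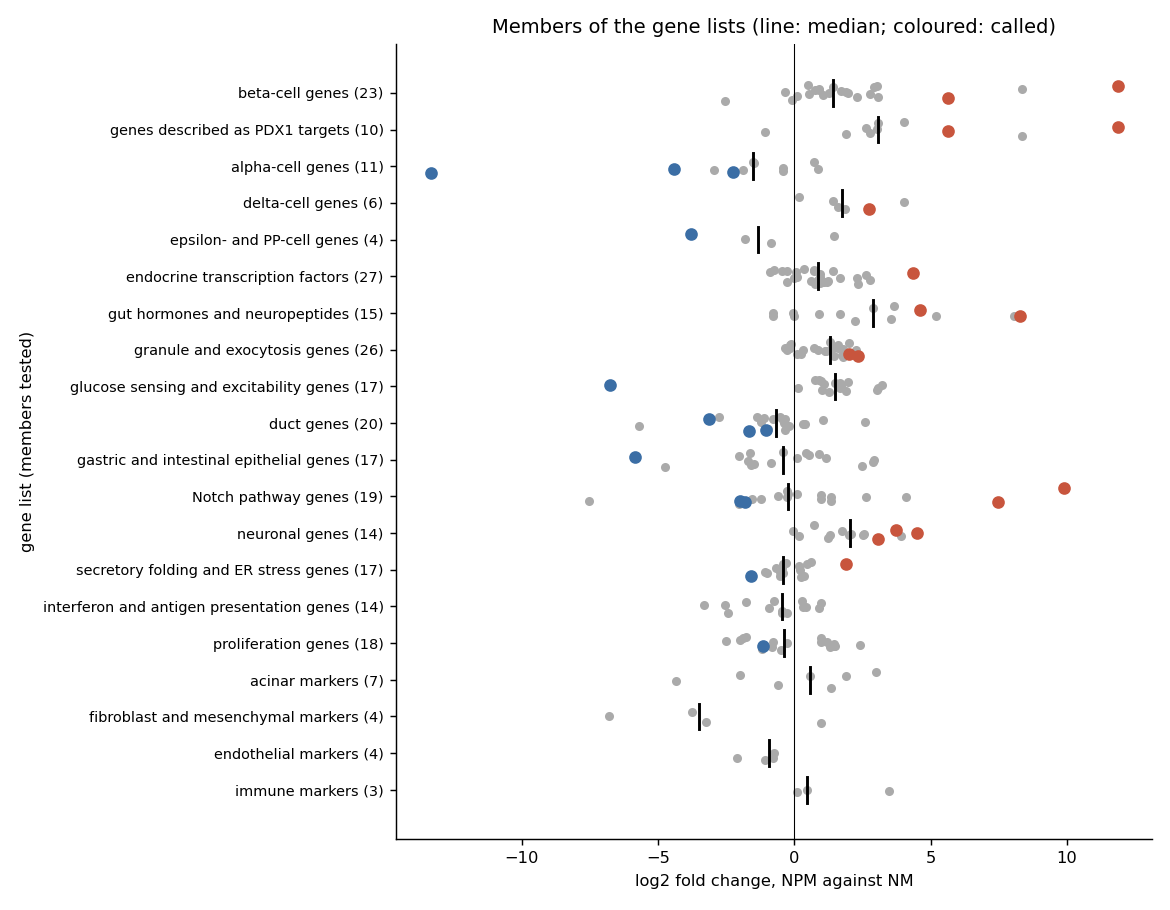
Log2 fold change of NPM against NM cells for each tested member of the 20 gene lists, with the number tested in brackets. Red and blue points passed the test as higher or lower and black lines are list medians, which lay above 0 for the β-cell, δ-cell, gut hormone, granule, glucose sensing and neuronal lists and below 0 for the α-cell and duct lists.

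The genes with the smallest adjusted p values were chosen by rule as 12 higher and 12 lower, with Pdx1 among them. Their NM and NPM samples did not overlap within either Ngn3 form. All 24 were called in every leave-one-out fit, but this was largely set by choosing them from the same samples. Ptn, a secreted heparin-binding growth factor also called pleiotrophin, led those that rose. It had 2 counts in all over the 6 NM samples and stood at 94.3, 134 and 6.12 CPM in WT NPM replicates 1, 2 and 3 and 125 and 69.1 CPM in 6SA NPM replicates 1 and 2. The ratio of summed levels was 2660.1 (95% counting interval 736 to 21972, exact binomial), with an adjusted p of 0.000139. The NM counts of Ptn lay under the limit of detection in each sample, so the size of this ratio is uncertain. Ptn was found in every technical repeat of every NPM sample, at 46 to 916 counts, and never above 1 count in a repeat of an NM sample.

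Chrna3, a subunit of nicotinic acetylcholine receptors, had 1 count over the NM samples and stood at 88.8, 202 and 2.66 CPM in WT NPM replicates 1, 2 and 3 and 140.2 and 102 CPM in 6SA NPM replicates 1 and 2. The ratio of summed levels was 6415 (95% counting interval 1151 to 253417, exact binomial), with an adjusted p of 0.000557. As that 1 count lies under the limit of detection, the size of this ratio is uncertain too. Chrnb4, a subunit encoded in the same gene cluster and named here after its values were seen, was at 0 to 2.02 CPM (median 0.0519) in the 6 NM samples and at 2.39 to 189 CPM in the 5 NPM samples (log2 fold change 9.17 ± 1.49, adjusted p = 0.00323). Tagln3, a calponin family protein of neurons, was at 0 to 3.55 CPM (median 0.311) in the 6 NM samples and at 643, 1099 and 122 CPM in WT NPM replicates 1, 2 and 3 and 649 and 206 CPM in 6SA NPM replicates 1 and 2 (log2 fold change 8.72 ± 1.15, adjusted p = 0.000392). For each of these genes WT NPM replicate 3 was the lowest NPM sample, yet above the WT NM samples.

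The other genes of this group included regulators, transporters and enzymes. Lmo1, a LIM-only cofactor of transcription, was at 0 to 0.978 CPM (median 0) in the 6 NM samples and at 6.52 to 118 CPM in the 5 NPM samples (log2 fold change 8.66 ± 1.33, adjusted p = 0.00082). Slc39a8, a zinc importer, was at 1.04 to 10.1 CPM (median 3.39) in the 6 NM samples and at 18.1 to 102 CPM in the 5 NPM samples (log2 fold change 4.03 ± 0.62, adjusted p = 0.000788). Fgf12, an intracellular protein that binds sodium channels, was at 0 to 1.66 CPM (median 0.467) in the 6 NM samples and at 9.04 to 89.8 CPM in the 5 NPM samples (log2 fold change 6.49 ± 0.999, adjusted p = 0.00082). Xpnpep2, a membrane aminopeptidase, was at 0 to 0.611 CPM (median 0.228) in the 6 NM samples and at 16.6 to 86.3 CPM in the 5 NPM samples (log2 fold change 8.101 ± 1.18, adjusted p = 0.00056).

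Smaller rises at higher levels were seen for Fkbp9, a prolyl isomerase of the endoplasmic reticulum, at 81.5 to 142 CPM (median 94.5) in the 6 NM samples and at 125 to 838 CPM in the 5 NPM samples (log2 fold change 2.34 ± 0.33, adjusted p = 0.000557). Btbd11 rose by 3.18 ± 0.46 (adjusted p = 0.000557) and Trp53i13 by 2.77 ± 0.42 (adjusted p = 0.000788), the latter overlapping Abhd15 on the other strand. The remaining gene, Gm2861, was at 6.52 to 42.5 CPM in the 5 NPM samples with a mean of 0.0652 CPM in NM cells (adjusted p = 0.000503). Among genes named after their values were seen, Vamp2, a SNARE of exocytosis, rose by 1.85 ± 0.304 (adjusted p = 0.00138), Ppp1r1a, an inhibitor of protein phosphatase 1, by 6.03 ± 1.11 (adjusted p = 0.00495) and Ramp1, a partner of the CGRP receptor, by 2.27 ± 0.42 (adjusted p = 0.00397).

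Among the genes that fell were secreted proteins of epithelia and liver. Lbp, lipopolysaccharide-binding protein, was at 165, 123 and 30.4 CPM in WT NM replicates 1, 2 and 3 and 241, 112 and 95.4 CPM in those with 6SA Ngn3. NPM cells had 8.18, 0.439 and 8.64 CPM in WT NPM replicates 1, 2 and 3 and 9.495 and 20.6 CPM in 6SA NPM replicates 1 and 2. The groups did not overlap within either form, and Lbp fell by 3.75 ± 0.52 on the log2 scale (adjusted p = 0.000503). Trf, transferrin, was at 44.3 to 219 CPM (median 183) in the 6 NM samples and at 5.56 to 15.02 CPM in the 5 NPM samples, and fell by 3.91 ± 0.57 (adjusted p = 0.000557). Dmbt1 was at 2.12 to 372 CPM (median 65.9) in the 6 NM samples and at 0.146 to 2.43 CPM in the 5 NPM samples and fell by 5.86 ± 0.89 (adjusted p = 0.000788), and it overlaps Fgfr2 on the other strand.

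Some of the named genes that fell encode adhesion and matrix proteins. Vcam1, a ligand of leukocyte integrins, was at 31.6 to 156 CPM (median 70.3) in the 6 NM samples and at 2.84, 0 and 20.5 CPM in WT NPM replicates 1, 2 and 3 and 0.203 and 1.48 CPM in 6SA NPM replicates 1 and 2. It fell by 5.11 ± 0.803 (adjusted p = 0.000892), and the related Icam1 fell by 2.98 ± 0.49 (adjusted p = 0.00146). Col12a1, a collagen that lies along other collagen fibrils, was at 10.1 to 63.2 CPM (median 21.1) in the 6 NM samples and at 0.0868 to 2.53 CPM in the 5 NPM samples, and fell by 5.42 ± 0.78 (adjusted p = 0.000557). Ecm1, extracellular matrix protein 1, fell by 1.97 ± 0.33 (adjusted p = 0.00146). The fibroblast markers Col1a1, Col1a2 and Col3a1 had means of 15.7, 31.4 and 2.89 CPM in NM cells. In NPM cells these were 0.156, 3.73 and 0.0532 CPM, while Pdgfra went from 0.141 to 1.27 CPM. None of the fibroblast markers passed the main test, and their part in these falls was not tested.

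The rest included genes of signalling. Lyn, a Src-family kinase, fell by 2.00 ± 0.32 (adjusted p = 0.000892). Casp8, the initiator caspase of death receptors, fell by 2.16 ± 0.34 (adjusted p = 0.00082), and Efna1, an ephrin ligand, fell by 1.82 ± 0.296 (adjusted p = 0.00131). Trim16, a ubiquitin ligase, fell by 3.67 ± 0.56 (adjusted p = 0.000788) and Fam110c fell by 2.86 ± 0.47 (adjusted p = 0.00131). Casp8 was at 93.96 to 197 CPM (median 123) in the 6 NM samples and at 14.3 to 81.4 CPM in the 5 NPM samples. Named after their values were seen, Tnf, the inflammatory cytokine, fell by 4.33 ± 0.77 (adjusted p = 0.00324), Sparc, a matricellular protein, fell by 5.04 ± 0.89 (adjusted p = 0.00306), and Slc16a1, a lactate transporter that mature β-cells keep low, fell by 3.07 ± 0.52 (adjusted p = 0.00197).

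**Figure D4:**
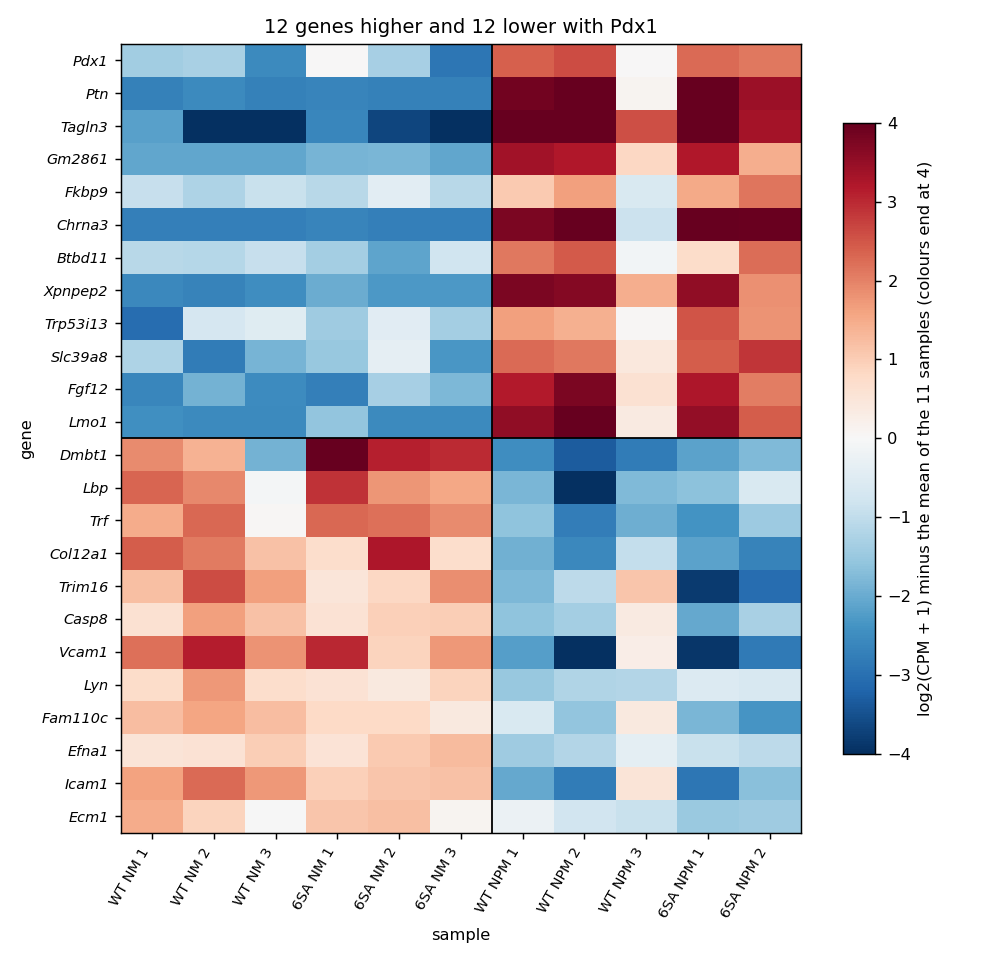
Level of Pdx1 and the 11 other genes chosen as higher, and of the 12 chosen as lower with Pdx1, in each of the 11 samples. Values are log2(CPM + 1) minus the gene's mean over the samples, with colours ending at 4. WT NPM 3, at passage 5, was paler than the other NPM samples for most of the genes that rose.

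The effect of Pdx1 was also taken within each Ngn3 form. With WT Ngn3, 5 genes were higher (0.0208% of those tested), namely Ptn, Tagln3, Gm2861, Xpnpep2 and Plce1, and 4 were lower (0.0167%), namely Lbp, Trf, Lyn and Tmem125. Leaving out 1 sample gave 0 genes without WT NPM replicate 1 or 2 and 459 without WT NPM replicate 3, and the replicate block gave 353. With 6SA Ngn3, 12 genes were higher (0.05%), including Ptn, Tagln3, Chrna3, Vamp2 and Gip, and 20 were lower (0.0833%), including Col12a1, Trf, Syt8, Dmbt1, Vcam1 and Tnf. Leaving out 1 sample gave 0 genes without any one of the 6SA NM samples or 6SA NPM replicate 2 and 75 without WT NPM replicate 3, which shares the estimate of the spread, and the replicate block gave 125.

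Genes past the threshold in one form alone were not shown to differ between the forms. The test of the difference, the 6SA effect minus the WT effect, called no gene in edgeR (0.0% of 24004), with 865 genes at an unadjusted p under 0.05, 15 genes in DESeq2 and 77 without the filter on low counts. Both effects are given side by side for some genes. That of Ptn was 10.57 ± 1.77 on the log2 scale with WT and 11.17 ± 1.82 with 6SA Ngn3, that of Pdx1 3.82 ± 0.78 and 3.23 ± 0.798. That of Iapp was 5.33 ± 1.87 and 5.93 ± 1.97. These pairs of effects lay close together. Those of other named genes, such as Gip by its levels above, lay further apart, without the difference passing the test. There were only 2 6SA NPM samples, both at passage 2.

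Whether Pdx1 had the same effect without Ngn3 was asked in cells of the same cultures that lacked the Ngn3 reporter, as 6 samples with Pdx1 and MafA against 5 with MafA alone, which share no sample with the comparison above. Pdx1 itself was at 14.003 to 36.4 CPM with its vector and 4.22 to 19.3 CPM with MafA alone, which did not pass the test (log2 fold change 0.79 ± 0.54, adjusted p = 1.0). Its level with the vector was thus below that of most NPM samples, and the part of this in the differences was not tested. No gene was called there in edgeR, with 689 genes at an unadjusted p under 0.05. The difference between the effect with Ngn3 and that without it was called for 12 genes (0.05%), 3 with a higher effect where Ngn3 was present and 9 with a lower one. All 12 had also passed the test with Ngn3.

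The higher effects were those of Xpnpep2 (difference 10.53, adjusted p = 0.0364), Trp53i13 (3.35, adjusted p = 0.0364) and Fkbp9 (2.43, adjusted p = 0.0437), all as log2 differences. Fkbp9, for one, changed by 2.34 ± 0.33 with Ngn3 and by -0.09 ± 0.33 without it. The lower effects included Syt8, a synaptotagmin (difference -6.58, adjusted p = 0.0364), Trf (-3.99, adjusted p = 0.043), Lbp (-3.42, adjusted p = 0.0437) and Cbs, an enzyme of homocysteine metabolism (-4.24, adjusted p = 0.0437). Trf fell by 3.91 on the log2 scale with Ngn3 and stood at 0.08 ± 0.48 without it. Leaving out 1 sample gave 0 such genes without any one of the 6SA NM samples, WT NM replicate 2 or WT NPM replicate 1, 1 to 10 without the others, and 300 without WT NPM replicate 3. Fitting only the conditions compared gave 2.

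**Figure D5:**
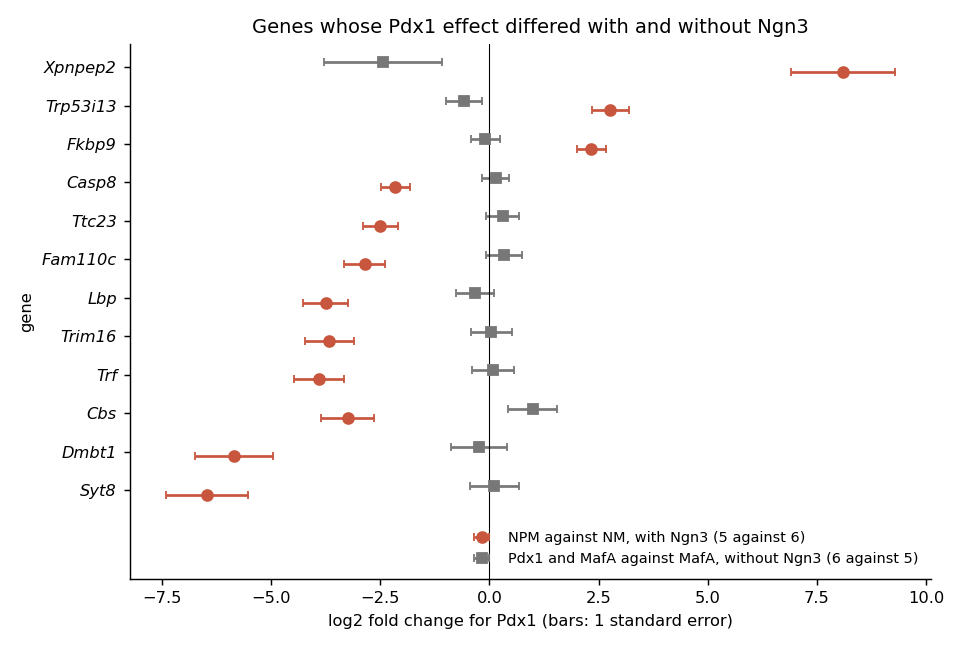
Log2 fold change for Pdx1 with Ngn3 (red circles, NPM against NM, 5 against 6 samples) and without Ngn3 (grey squares, Pdx1 and MafA against MafA, 6 against 5), with bars of 1 standard error, for the 12 genes whose effects differed. With Ngn3 the effects reached 8.10 for Xpnpep2 and -6.47 for Syt8.

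The levels in 6 samples of cells with Ngn3 and Pdx1 but no MafA vector are given beside those above as values only. Ins1 was at 0 to 0.698 CPM (median 0.0347) there and Ins2 at 0. Iapp was at 9.51 to 1013 CPM (median 593), Sst at 19.03 to 13797 CPM (median 6067) and Gip at 0.492 to 132 CPM (median 83.7), while Gcg was at most 0.116 CPM. Ptn was at 0 to 24.996 CPM (median 13.1), Tagln3 at 0.492 to 108 CPM (median 70.9) and Chrna3 at 0 to 20.03 CPM (median 5.95), against NM ranges that ended at 0.1304, 3.55 and 0.0611 CPM. Spp1 was at 1147 to 13093 CPM (median 5395) and Clu at 7068 to 28343 CPM (median 15627).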

How the data were processed

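Sources gave the following for how the values were made. The authors sorted pools of 50 cells into lysis buffer, made libraries by a single-cell protocol with Nextera XT, and sequenced single-end reads. Per the labels and the submitters' processing notes, reads were aligned with GSNAP to mm10 and assigned to Ensembl genes with HTSeq 0.5.3p3, and the deposited values are raw counts of each library, technical repeats included. Whether counting used strand is not given in the sources used here, so genes that overlap others on the opposite strand are uncertain, as are paralogs. The table held 46078 genes and 92 spike-in sequences. The row without a gene took 37.5% to 52.7% of counts in NM and 38.4% to 50.9% in NPM samples and was left out, as were spike-ins (0.0615% to 0.315%). Kept libraries had over 1000000 gene counts, under 25% on spike-ins and over 10000 genes detected, limits that come from the study's methods.

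Technical repeats were summed. CPM is the gene's counts per 1000000 gene counts, with totals scaled by TMM factors except where named as before scaling. Genes with a count in at least 5 libraries and a variance of log2(CPM + 1) above 0.001 were tested, 24004 in all. The main test was edgeR 4.0.16 in R 4.3.3 (TMM, trended dispersion, quasi-likelihood with the legacy setting) in one model of 12 conditions and 32 samples, with Benjamini-Hochberg adjustment and a threshold of 0.05. The contrast was NPM minus NM within each Ngn3 form, averaged over both forms. Further contrasts were each form alone, the difference between forms, and the difference from Pdx1 with MafA against MafA. DESeq2 1.42.0 was an alternative, and scripts were tested on simulated data. For 4 hormone genes, labels were also exchanged within Ngn3 forms in an exact permutation test, two-sided, on log2(CPM + 1). A version that exchanged signs within same-numbered pairs, levels with all libraries summed, and the duct sum without Clu and Spp1 were added after the data were seen. Where a group had no count, a fold was set against 3 counts in each of its samples, with technical repeats summed. Intervals and this limit cover counting error only, as PCR copies are not independent.

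Same-numbered NM and NPM samples deviated together from their group means over the 5000 genes checked (r = 0.438, 0.156 and 0.355 for WT and 0.17 and 0.399 for 6SA). With WT Ngn3, samples of different numbers had r of -0.41 to -0.0272. However, 6SA NPM replicate 1 had r of 0.186 with 6SA NM replicate 3, above that with its own number. With only 2 6SA NPM samples, their deviations mirror each other, so the 6SA values are not separate evidence. The labels give replicates 1 and 2 and replicate 3 different passages, and the numbers were taken to pair the samples.

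The genes named are the 3 factors, 8 islet hormone genes, up to 4 members a direction of each of 20 gene lists (281 genes) that passed the threshold, taken by smallest adjusted p, the 12 higher and 12 lower genes of smallest adjusted p whose samples did not overlap within either form, and up to 5 genes a direction for each difference between effects. Chrnb4, Vamp2, Ppp1r1a, Ramp1, Tnf, Slc16a1, Sparc, and single genes named for counts were added after their values were seen. The samples compared and the lists were chosen with earlier results of these data known. Gene names and positions are from GRCm38, and promoters from RefSeq. Alternatives were DESeq2, RLE size factors, filterByExpr or no filter, a fit of the compared conditions alone, a block for the replicate number, no limit on depth, a single technical repeat, no legacy setting, passage 2 only, and leaving out each of 11 samples.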

Additional observations from a re-analysis of the deposited data

Results flagged for a closer look

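In 132 groups of samples of named genes, 20 had a sample far from the others by Dixon's criterion, and chance gives this in about 1 of 20 groups. Of the NPM samples, WT NPM replicate 3, at passage 5, was the low one for Neurog3 (14.6 CPM), Pdx1 (30.9 CPM), Dtx1 (0.532 CPM), Ptn (6.12 CPM), Chrna3 (2.66 CPM) and Chrnb4 (2.39 CPM), and the high one for Notch2 (54.9 CPM) and Syt8 (1.33 CPM). WT NPM replicate 1 was the high one for Ppy (1.22 CPM).

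Of the NM samples, WT NM replicate 1 was high for Gip (49.9 CPM) and Chrnb4 (2.02 CPM) and low for Trp53i13 (4.92 CPM), and WT NM replicate 2 was high for Lyn (45.4 CPM). WT NM replicate 3 was low for Slc38a5 (0.605 CPM), Trf (44.3 CPM) and Vamp2 (19.2 CPM). 6SA NM replicate 1 was high for Dtx1 (1.1 CPM), Chrna3 (0.0611 CPM) and Lmo1 (0.978 CPM), and 6SA NM replicate 2 for Ppy (11.2 CPM).

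The effect of Pdx1 differed with and without Ngn3 by edgeR's test of the difference, adjusted over all genes, for 12 genes. As the effect with Ngn3 minus that without it on the log2 scale, these were Xpnpep2 (10.53), Trp53i13 (3.35), Fkbp9 (2.43), Syt8 (-6.58), Trf (-3.99), Fam110c (-3.19), Lbp (-3.42), Cbs (-4.24), Dmbt1 (-5.61), Trim16 (-3.71), Ttc23 (-2.80) and Casp8 (-2.31).

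The libraries left out for their depth were all of NPM cells. Ins1 had 641 counts in that of WT NPM replicate 2 (625650 gene counts). In that of 6SA NPM replicate 2 (241563 gene counts) Ins1 had 95 counts, Ins2 10 and Sst 6090. The NM libraries had no count of Ins1 or Ins2, but did have Sst. The only library of 6SA NPM replicate 3 (408733 gene counts, passage 5) held 1 count of Ins1, 6992 of Sst and 994 of Gip.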

How the results depend on the processing

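Counts of genes called moved with the settings, and calls of named genes, most of them named for passing the test, moved too. Over both Ngn3 forms (654) the count was 1948 in DESeq2, 1930 without a filter on low counts, 2038 with the replicate block, 321 with the first technical repeat only, 1646 without the legacy setting and 999 at passage 2 alone, and 154 to 1619 when 1 sample was left out (401 without 6SA NM replicate 2, 246 without 6SA NM replicate 3, 368 without 6SA NPM replicate 2, 297 and 369 without WT NM replicates 2 and 3, and 239 and 273 without WT NPM replicates 1 and 2). With only the conditions compared, 531 genes were called, 349 higher and 182 lower (65.7% higher). With WT Ngn3 (9) it was 543, 727, 353, 15, 233 and 274 in the same order, 16 with RLE size factors, 15 with only the conditions compared, 15 with all libraries and 0 to 459 when 1 sample was left out. With 6SA Ngn3 (32) it was 419 in DESeq2, 590 without the filter, 18 with only the conditions compared, 125 with the replicate block, 180 without the legacy setting and 0 to 75 when 1 sample was left out. The difference between forms (0) gave 15 in DESeq2, 77 without the filter and 0 to 2 when 1 sample was left out. The difference with and without Ngn3 (12) gave 349 in DESeq2, 6 with filterByExpr, 587 without the filter, 2 with only the conditions compared, 62 with the replicate block, 5 with all libraries, 2 with the first repeat only, 26 without the legacy setting, 119 at passage 2 and 0 to 300 when 1 sample was left out. The cause was not tested.

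Of the 66 named genes, none of the 59 called changed direction. Of these 59, 11 lost the call with the first technical repeat only, 5 with only the conditions compared and 2 in DESeq2. With filterByExpr 1 lost it, at passage 2 alone 1, and 0 to 25 when 1 sample was left out. With the replicate block Ins2 and Sst passed the test, Pyy turned to -0.65 without passing it, and no other call changed. The other turns were of Ppy (2.34 with the first technical repeat only, and -3.41 to 3.23 when 1 sample was left out, with 0.05 without WT NM replicate 1) and Pyy (-4.50 to 2.32 when 1 sample was left out, with -0.82 without WT NPM replicate 1), neither of which passed the test in those fits. The exact permutation p of Gcg was 0.35, or 0.2 with a pseudocount of 0.1, and that of Sst 0.025, or 0.02 with a pseudocount of 10. With signs exchanged within same-numbered pairs, where 0.0625 is the smallest p, the exact permutation p was 0.125 for Ins1 (mean log2 difference 4.43), Ins2 (1.64) and Sst (5.18). There were only 2 6SA NPM samples, and the limit of detection was 0.183 to 0.458 CPM. Leaving out WT NPM replicate 3 moved the count of genes called from 654 to 1619.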
